A study of Mus musculus with 4 samples.

Results

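Socs1, Socs2, Socs3 and Cish code for cytokine feedback inhibitors of the SOCS family (suppressors of cytokine signaling), and they are 4 of the 13978 genes in a droplet RNA sequencing table of mouse bone marrow progenitors. The 4 genes were taken by name, and they were chosen by their higher UMI levels in 1 of the study's 2 groups, which were already known, so their difference between the groups is a description and carries no test. The study addresses how hematopoietic stem and progenitor cells of the host are changed in a marrow with B-cell acute lymphoblastic leukemia (B-ALL). Wt CD45.1 mice received 150000 primary tumor cells into the tail vein (the B-ALL environment, called leukemic marrow below) or phosphate-buffered saline in their place (the PBS control). The tumor cells, LN768, came from the lymph node of 1 leukemic Cd45.2+/+Ebf1+/-Pax5+/- mouse, which lacks 1 copy each of a pair of B-lineage transcription factors. In both groups, marrow cells sorted after 3 weeks as KIT+, Lin-, CD45.2- and CD45.1+ were sequenced, a gate meant to take wild-type host cells and leave out CD45.2+ tumor cells. GEO lists 2 samples per group, but the deposited cells carry only the name of their group, so each group entered as 1 sample. No test of the condition was therefore possible, all intervals below are 95% intervals that cover counting error only, and the spread between mice cannot be seen.

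SOCS proteins are made in response to the signals that they dampen. A cytokine receptor activates JAK kinases, these phosphorylate the receptor and STAT transcription factors, and STATs switch on SOCS genes. Each SOCS protein has an SH2 domain that binds phosphotyrosine and a C-terminal SOCS box that recruits elongins B and C and cullin 5 into a ubiquitin ligase. SOCS1 and SOCS3 also carry a short region that inhibits JAK kinase activity. CISH (also CIS) and SOCS2 are known as STAT5 targets that limit signaling by receptors such as those of erythropoietin, interleukin 3 and growth hormone. SOCS3 is known as a STAT3 target that binds gp130 and the granulocyte colony-stimulating factor receptor, and SOCS1 is induced strongly by interferons. In blood stem cells SOCS2 is known as a limit on cytokine signaling under stress.

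Promoter sequences show which STAT-type elements lie beside the members. RefSeq windows of 300 bases, 250 before and 50 after the gene start (GRCm38.p6), were found for Cish, Socs3 and Socs1, 3 of the 4 members, and Socs2 was not among them. The first 2 stretches hold the STAT element TTCNNNGAA, searched on both strands, and the last holds 2 overlapping copies of GAAANNGAA, an interferon-response type element also searched on both strands and added after the data were seen. Each is printed 5′ to 3′ on the strand of its gene, with the elements in capitals.
Cish, chr9:107296652-107296681, plus strand: cccagttTTCCTGGAAagTTCTTGGAAatc
Socs3, chr11:117969482-117969550, minus strand: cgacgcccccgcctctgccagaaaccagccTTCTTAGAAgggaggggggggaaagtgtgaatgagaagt
Socs1, chr16:10785575-10785649, minus strand: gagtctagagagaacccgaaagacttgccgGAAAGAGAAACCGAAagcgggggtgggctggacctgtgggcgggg
The Cish elements start at bases 1 and 12 of the gene, in the 5′ UTR of 1 GENCODE transcript. The Socs3 element starts 154 bases before the start that its window uses, base 117969366, and lies in an intron of 1 GENCODE transcript. The Socs1 elements start 83 and 77 bases before the gene start and lie in no GENCODE transcript. TTCNNNGAA occurred in 2726 of 32851 such windows (8.30%), and 150 windows (0.457%) held at least 2 copies. GAAANNGAA occurred in 2812 windows (8.56%), and 205 (0.624%) held at least 2. No TTCNNNGAA stood in the Socs1 window, which says only that these letters are not within these 300 bases. A match of letters is a description and shows no binding. In GRCm38 the genes lie at 107296659 to 107302784 of chromosome 9 (Cish), 95383903 to 95417321 of chromosome 10 (Socs2), 117966079 to 117970336 of chromosome 11 (Socs3) and 10783808 to 10785536 of chromosome 16 (Socs1). The windows of Cish and Socs1 use the start of these spans, and that of Socs3 a start 970 bases inside its span.

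The table held 5882 cells per group, with 68391214 unique molecular identifiers (UMIs, 1 per captured transcript) in the PBS control and 76059014 in the leukemic marrow. Median depth was 10189 and 10458 UMIs per cell, and cells with fewer than 3000 UMIs numbered 0 and 179. There were 18 cell barcodes present in both groups (36 cells), and without them the 4 members' folds over all cells were between 2.42 and 5.01 on the log2 scale, against 2.42 and 5.0 with them. Mitochondrially encoded genes took 3.56% of control UMIs and 5.14% in the leukemic marrow (3.79% and 6.41% in HSC-like cells, the stem cell class defined below). Kit, the antigen used for the sort, was lower in the leukemic marrow (log2 fold -0.84) and Ptprc, which codes for CD45, was higher (0.25). Of 10 B cell markers 5 were measured, and their summed level went from 43.6 to 355 CPM (UMIs scaled to a common total of 1000000), of which Igkc alone made 0.146 and 301. Without Igkc the sum was 43.4 and 53.3 CPM, and in HSC-like cells of the leukemic marrow the full list stood at 49.4 CPM against 44.2 CPM in the control. The part of these differences in the results below was not tested.

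All 4 members were higher in the leukemic marrow over all cells. CPM is not divided by gene length, because each transcript is read once from its 3′ end, so levels are compared between cells and not between genes. Socs2 had 126 UMIs in the PBS control, 1.84 CPM (1.53 to 2.19), and 4603 UMIs in the leukemic marrow, 60.5 CPM (58.8 to 62.3). The difference was 32.1-fold, or 5.0 on the log2 scale (4.75 to 5.27). Cish had 279 and 3702 UMIs, or 4.08 CPM (3.61 to 4.59) and 48.7 CPM (47.1 to 50.3), a log2 fold of 3.54 (3.37 to 3.72). For all 4 members, Socs3 and Socs1 below included, the intervals of the groups lie far apart. Socs3 had 176 and 1534 UMIs, or 2.57 CPM (2.21 to 2.98) and 20.2 CPM (19.2 to 21.2), a log2 fold of 2.93 (2.71 to 3.17). Socs1 had 324 and 1976 UMIs, or 4.74 CPM (4.24 to 5.28) and 26.0 CPM (24.8 to 27.2), a log2 fold of 2.42 (2.25 to 2.59). Among the 8781 genes whose mean over the groups reached 10 CPM, Socs2 ranked 3, Cish 7, Socs3 18 and Socs1 29 by fold. All 4 were at least 2-fold higher, as were 1.53% of these genes, and 1.07% were at least 2-fold lower. Each member passed the 10 CPM limit only through its level in the leukemic marrow. Since the members were proposed for this difference, nothing is read from the count or from their median. The median log2 fold was 3.24 over the members and -0.02 over all these genes. With the classes of cells weighted equally in both groups, the log2 folds were 4.30 for Socs2, 3.08 for Cish, 2.48 for Socs3 and 2.00 for Socs1.

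Classes of progenitors were built from clusters of the authors' two-dimensional map, named from marker UMIs, and 13 classes had at least 30 cells in both groups. Hematopoietic stem cell-like (HSC-like) cells came from 3 clusters, 1 of which (cluster 9) was led by genes of mitosis with none of the HSC markers among its 10 leading genes. Socs2 itself was among the 10 leading genes of the other 2 HSC-like clusters, and Socs3 of the cluster named multipotent progenitor-like, so the order of classes is a description. The map was made by the authors from these same cells, and 5 classes without a clear marker identity kept their cluster number. Cluster 12 was led by Hlf, Vldlr, Ly6a and Adgrl4, a mix of stem and multipotent progenitor genes, cluster 11 by Apoe, Gata2 and Cd55, cluster 3 by Csrp3, Trib2 and Mfsd2b, cluster 0 by Ccl9, Cxcr2 and Cebpa, and cluster 8 by Igkc and globin genes. HSC-like cells made up 7.43% of control cells (437) and 21.9% of cells of the leukemic marrow (1287).

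Socs2, whose protein binds activated cytokine receptors through its SH2 domain, was most abundant in HSC-like cells of the leukemic marrow, at 246 CPM (237 to 256). Next came cluster 12 at 83.0 CPM, megakaryocyte-like cells at 64.6, multipotent progenitor-like cells at 55.9 and cluster 11 at 47.3 CPM. Levels then fell to 22.4 in cluster 3, 20.02 in cluster 8 and 13.3 in erythroid-like cells. The lowest levels were 6.93 CPM in lymphoid-primed-like cells, 5.67 in monocyte progenitor-like, 4.37 in neutrophil progenitor-like, 4.35 in basophil and mast cell-like cells and 3.09 in cluster 0. Counting intervals of neighbours in this order were apart only between the first and second, the second and the third, and the fifth and the sixth classes. In the PBS control the order was led by megakaryocyte-like cells at 8.69 CPM, HSC-like cells at 7.65 and lymphoid-primed-like cells at 5.21 CPM, and no pair of neighbours was apart. HSC-like cells held 58.5% of the Socs2 UMIs of the leukemic marrow, and megakaryocyte-like cells, 15.2% of its cells, held 18.8%.

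Cish, the founding member of the family, had a similar order. Its level in the leukemic marrow was 152 CPM (144 to 159) in HSC-like cells, 83.0 in megakaryocyte-like cells, 49.3 in cluster 12, 48.8 in cluster 11 and 37.8 CPM in erythroid-like cells. The remaining classes ran from 26.5 CPM in cluster 3 to 5.61 CPM in monocyte progenitor-like cells, and intervals of neighbours were apart only between the first and second and the second and the third classes. Megakaryocyte-like cells, 15.2% of the group's cells, held 29.98% of its Cish UMIs and HSC-like cells 44.8%. In the PBS control Cish was between 1.20 CPM (neutrophil progenitor-like) and 12.2 CPM (HSC-like).

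Socs1, the interferon-induced member, reached 61.2 CPM (56.7 to 66.0) in HSC-like cells of the leukemic marrow and 7.32 CPM in monocyte progenitor-like cells, the lowest class. Cluster 12 at 39.8, megakaryocyte-like cells at 34.5 and multipotent progenitor-like cells at 33.6 CPM lay between, and only the first class stood apart from its neighbour. HSC-like cells held 33.9% of its UMIs in the leukemic marrow.

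Socs3, the STAT3-associated member, had another order. It was highest in multipotent progenitor-like cells of the leukemic marrow, at 63.9 CPM (57.3 to 71.1), and in cluster 12, at 60.6 CPM, which did not differ beyond counting error. Cluster 8 followed at 39.1 CPM, lymphoid-primed-like cells at 36.0 and HSC-like cells at 32.3 CPM. In megakaryocyte-like cells, where Cish and Socs2 were high, Socs3 was at 5.91 CPM, and it was lowest in erythroid-like cells at 1.94 CPM. Multipotent progenitor-like and HSC-like cells held 22.2% and 23.1% of its UMIs in the leukemic marrow, where they made up 10.4% and 21.9% of cells.

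**Figure D1:**
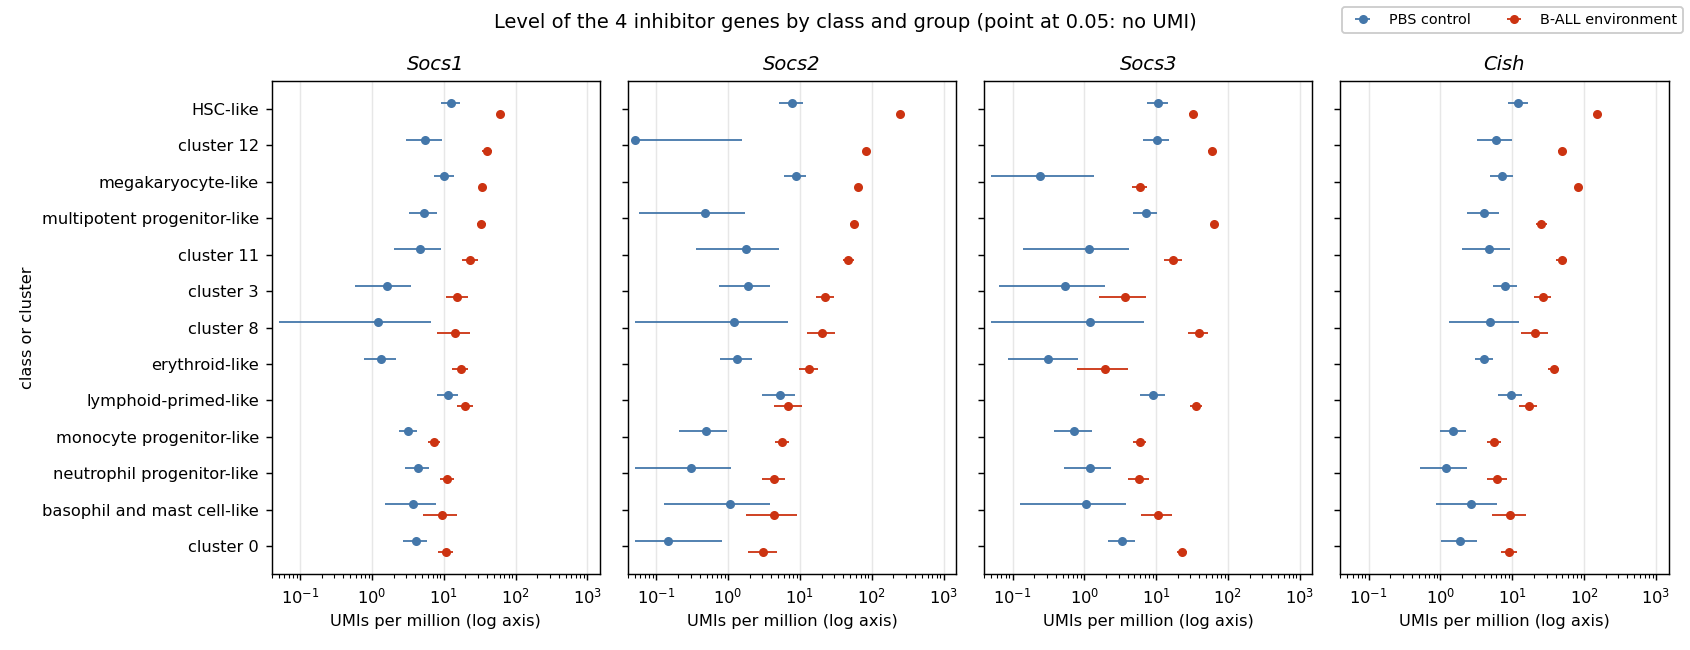
Level of each member in CPM (log axis) in the 13 progenitor classes, for the PBS control and the leukemic marrow (B-ALL environment in the key), with exact Poisson 95% intervals for counting error. The control point of Socs2 in cluster 12 is drawn at the left edge because it had 0 UMIs. Socs2, Cish and Socs1 peak in HSC-like cells of the leukemic marrow (246, 152 and 61.2 CPM), and Socs3 in multipotent progenitor-like cells (63.9 CPM).

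Within classes, the members were higher in the leukemic marrow in 52 of 52 pairs of gene and class, with the interval above 0 in 49 and at least 2-fold in 49. The share of tested genes that were at least 2-fold higher was 2.64% in HSC-like, 1.35% in multipotent progenitor-like, 1.42% in megakaryocyte-like, 2.24% in erythroid-like, 0.953% in lymphoid-primed-like, 0.268% in monocyte progenitor-like, 0.39% in neutrophil progenitor-like and 1.67% in basophil and mast cell-like cells. It was 0.402% in cluster 0, 2.69% in cluster 3, 9.0% in cluster 8, 2.43% in cluster 11 and 1.61% in cluster 12. These shares leave out genes that averaged under 10 CPM in the class, whereas the 52 pairs leave out none. No member passed that limit in monocyte progenitor-like, neutrophil progenitor-like or basophil and mast cell-like cells. Only 1 did in erythroid-like cells and in cluster 0. With the limit at 1 CPM the share in HSC-like cells was 7.59%. The members were also chosen for this difference, so nothing is read from their counts against these shares. Mitochondrial shares were also higher in the leukemic marrow in 12 of the 13 classes, and their part in the folds was not tested.

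In HSC-like cells, Socs2 went from 27 UMIs, or 7.65 CPM, to 2694 UMIs, or 246 CPM, a 31.2-fold difference (log2 4.96, 4.42 to 5.57). Cish went from 43 to 1659 UMIs (log2 3.59, 3.16 to 4.06), Socs1 from 45 to 670 (2.22, 1.78 to 2.69) and Socs3 from 37 to 354 UMIs (1.58, 1.09 to 2.11). All 4 intervals lie above 0, and the order of folds is that of all cells except that Socs1 stands above Socs3, with overlapping intervals. Kit was lower in these cells as well (log2 fold -1.04). Each of the 3 HSC-like clusters had the Socs2 difference, with log2 folds of 4.91 in cluster 1 (7 to 691 UMIs), 4.56 in cluster 5 (19 to 1764) and 7.08 in cluster 9 (4.59 to 12.4, 1 to 239 UMIs). The mitotic cluster 9 had the lowest Socs2 and Cish of the 3 in the leukemic marrow, at 148 and 58.3 CPM, and the highest Socs3, at 49.0 CPM. Cluster 5, which had 4 HSC markers among its leading genes, had the highest Socs2 and Cish, at 293 and 184 CPM.

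Other early progenitors shared the difference. Multipotent progenitor-like cells had 2 Socs2 UMIs in the PBS control and 298 in the leukemic marrow, a log2 fold of 6.83 (4.97 to 9.89). Cluster 12 had 0 Socs2 UMIs in 249 control cells, which allows up to 1.20% of cells and 1.27 CPM, against 340 UMIs, so its Socs2 was at least 63.0-fold higher with 3 UMIs as the floor of the class. Socs3 had log2 folds of 3.12 in multipotent progenitor-like cells and 2.52 in cluster 12. In megakaryocyte-like cells the log2 fold was 3.55 for Cish (30 to 1110 UMIs), 2.92 for Socs2 (36 to 864) and 1.80 for Socs1 (42 to 461). Socs3 there went from 1 to 79 UMIs (4.64, 2.12 to 9.96).

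Levels in the committed classes were often low, with wide intervals. Exceptions in the leukemic marrow were Cish in erythroid-like cells, at 37.8 CPM (31.7 to 44.7), and Socs3 in lymphoid-primed-like cells, at 36.0 CPM (29.5 to 43.4). Erythroid-like cells had log2 folds of 3.69 for Socs1, 3.32 for Socs2, 3.21 for Cish and 2.63 for Socs3. The Socs3 value rests on 4 and 7 UMIs. Monocyte progenitor-like cells had 1.21 for Socs1, 1.91 for Cish, 3.05 for Socs3 and 3.57 for Socs2 (8 to 83 UMIs). Their levels in the leukemic marrow were at most 7.32 CPM. With each cell drawn down to 5000 UMIs, 2.30% of them had a Socs2 UMI there, a share not read as expression below. Whether folds at such low shares reflect expression in the class was not tested. Basophil and mast cell-like cells had too few UMIs to set Socs1 (1.32, -0.06 to 2.86) and Socs2 (2.03, -0.36 to 5.33) apart from 0. The 3 pairs under 2-fold were all in lymphoid-primed-like cells. There the log2 fold was 0.40 for Socs2 (-0.61 to 1.43, 16 and 21 UMIs), 0.78 for Socs1 (0.16 to 1.43) and 0.82 for Cish (0.14 to 1.53), while Socs3 stood at 1.97. The Socs2 value turned to -0.13 when the map was cut into finer clusters, so no direction can be given for it. Whether folds differ between classes was not tested, since each class and group is 1 sample.

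**Figure D2:**
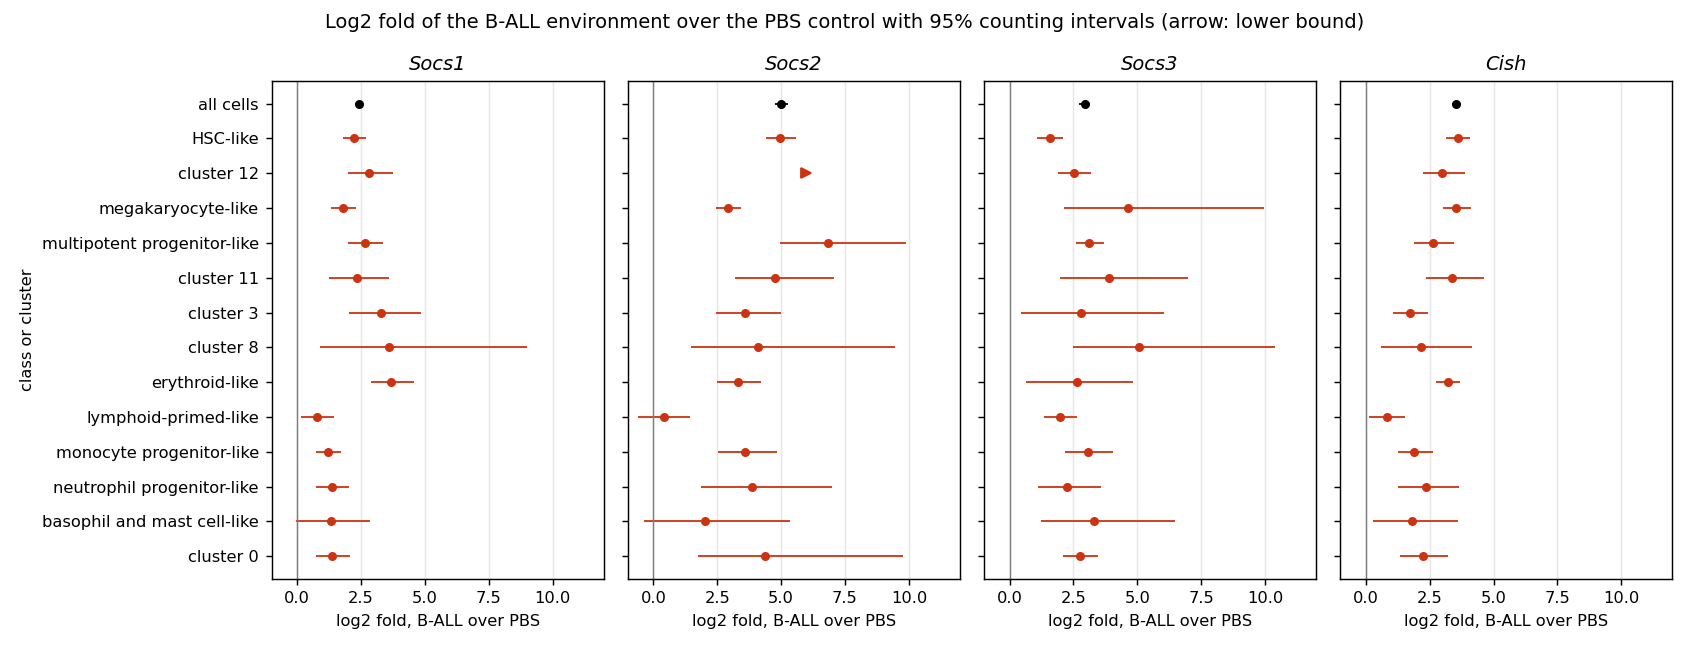
Log2 fold of each member, leukemic marrow over PBS control, within each progenitor class, with exact 95% conditional intervals for counting error, all cells in black and the lower bound for Socs2 in cluster 12 as an arrow. The points lie above 0 in every class, and those nearest 0 are Socs2, Socs1 and Cish in lymphoid-primed-like cells (0.40, 0.78 and 0.82).

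The share of cells with a UMI and the UMIs per cell both differed between the groups. Of HSC-like cells in the PBS control, 94.1% had no Socs2 UMI, 5.72% had 1, 0.229% had 2 and none had more. In the leukemic marrow 28.3% had none, 26.5% had 1, 14.8% had 2, 17.8% had 3 or 4 and 12.7% had at least 5, up to 22 in a cell. The mean per cell with a Socs2 UMI went from 1.04 to 2.92. For Cish the share of HSC-like cells without a UMI went from 91.1% to 44.4%, and 5.75% had at least 5 in the leukemic marrow against 0 of 437 in the control, which allows up to 0.686%. The highest Cish count of a cell, 25, was in the megakaryocyte-like class. Socs1 and Socs3 were detected in fewer cells, with 62.9% and 79.6% of HSC-like cells of the leukemic marrow at 0, against 92.2% for each in the control.

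**Figure D3:**
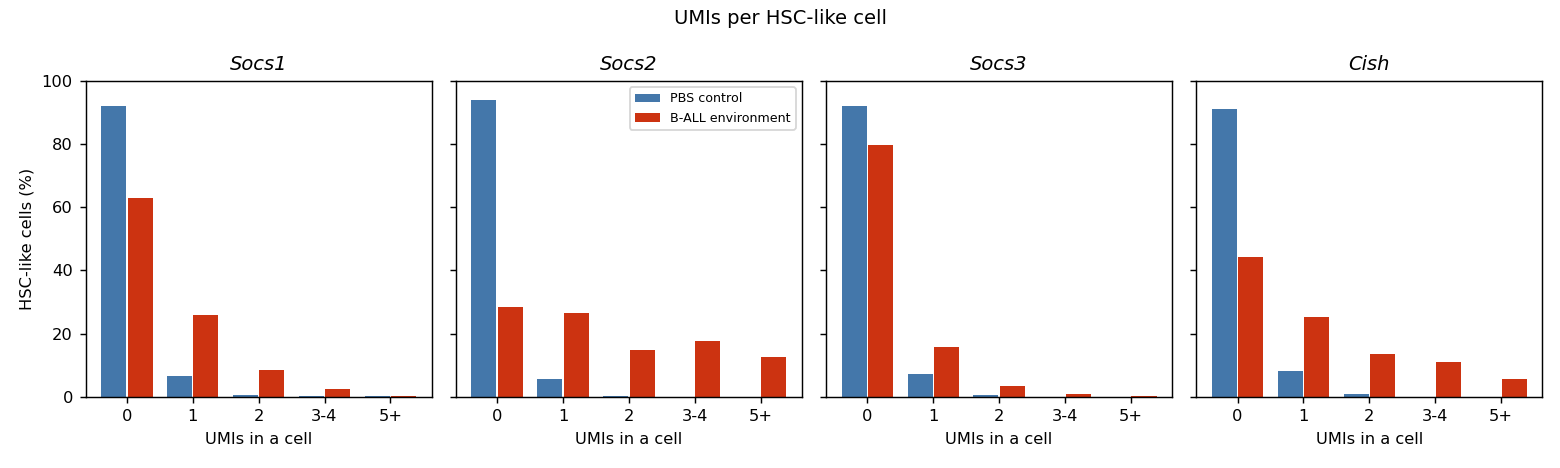
Percent of HSC-like cells with 0, 1, 2, 3 or 4, and at least 5 UMIs of each member, in the PBS control (437 cells) and the leukemic marrow (1287 cells). For Socs2 the share at 0 is 94.1% in the control and 28.3% in the leukemic marrow, where 12.7% hold at least 5.

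Detection depends on depth, so the shares were also computed for each cell drawn down to 5000 UMIs, which left out 682 control cells and 769 of the leukemic marrow. In HSC-like cells the share with a Socs2 UMI was then 2.76% and 57.7% (5.95% and 71.7% before), and with a Cish UMI 5.24% and 43.0% (8.92% and 55.6%). With Socs1 it was 4.999% and 25.2% (7.78% and 37.1%), and with Socs3 5.22% and 13.2% (7.78% and 20.4%). Over all cells the drawn-down shares were 0.928% and 21.7% for Socs2, 2.36% and 19.3% for Cish, 2.54% and 13.5% for Socs1 and 1.62% and 10.2% for Socs3. Free RNA can give UMIs to cells that do not express a gene. In the leukemic marrow the lowest drawn-down Socs2 shares were 1.34% in cluster 0, 2.06% in neutrophil progenitor-like and 2.30% in monocyte progenitor-like cells, whose median depths of 15038, 21500 and 18942 UMIs exceed the 7418 of HSC-like cells. The 57.7% of HSC-like cells lies far above these shares. The part of free RNA in any of the shares was not tested, so shares of a few percent in the committed classes are not read as expression.

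Several members were often found in the same cell of the leukemic marrow. Over all cells, 87.2% of control cells had a UMI of none of the 4 members, 11.8% of 1, 0.850% of 2, 0.102% of 3 and none of 4 (0 of 5882 cells, which allows up to 0.051%). In the leukemic marrow 36.9% had none, 30.6% had 1, 20.9% had 2, 9.62% had 3 and 1.89% (111 cells) had all 4. In HSC-like cells those without any fell from 73.9% to 9.40%, and cells with at least 2 members became the largest part, with 36.4% at 2, 21.8% at 3 and 4.74% (61 cells) at 4. Cells without any member made up 81.3% and 19.7% of megakaryocyte-like cells, 75.2% and 50.7% of lymphoid-primed-like cells, and 91.5% and 69.7% of monocyte progenitor-like cells. These counts are not depth-matched, and HSC-like cells with all 4 had a median of 11191 UMIs against 6154 for those with none.

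**Figure D4:**
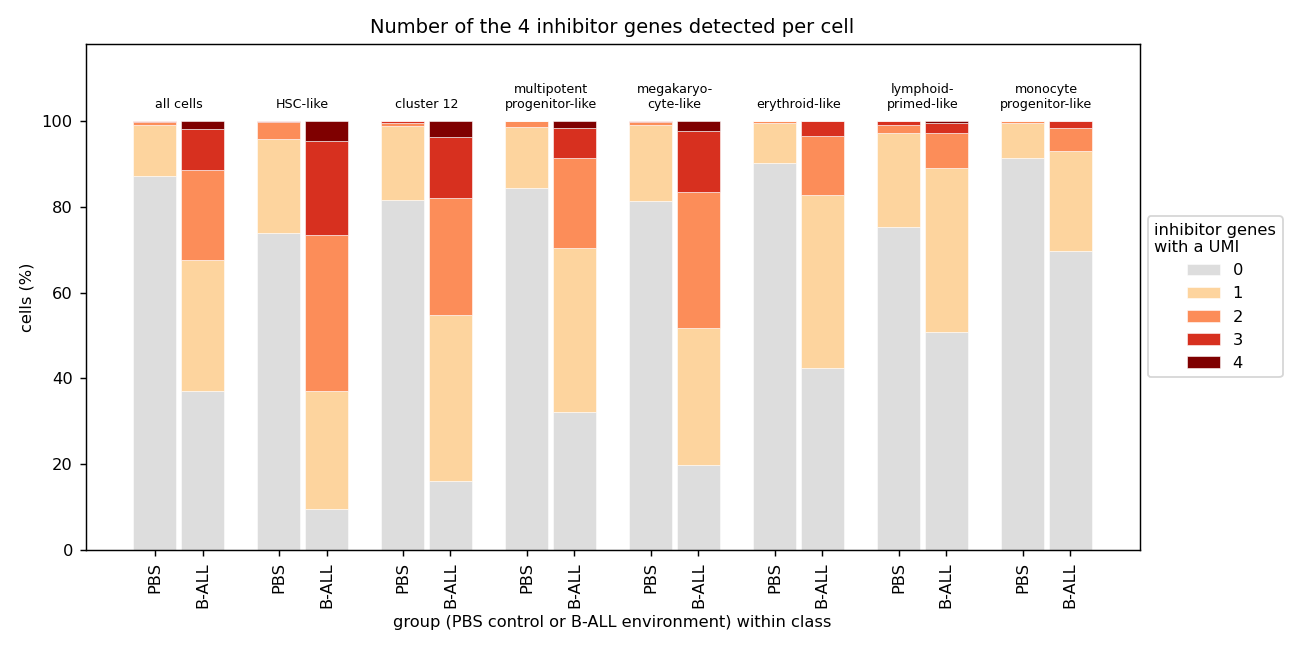
Percent of cells with a UMI of 0 to 4 of the members, in all cells and 7 classes of the PBS control (PBS) and the leukemic marrow (B-ALL), without matching of depth. Cells with none fall from 73.9% to 9.40% in HSC-like cells and from 91.5% to 69.7% in monocyte progenitor-like cells.

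The pair found together most often was Socs2 and Cish, the STAT5-associated members. Of the cells of the leukemic marrow with a Socs2 UMI 53.2% also had Cish, and of those with Cish 56.8% had Socs2. At 5000 UMIs per cell the expected number with both was 429, which is 2.00 times the product of the 2 shares (214). The ratio was 1.76 for Socs1 with Socs2 and for Socs1 with Cish, 1.38 for Socs1 with Socs3, 1.22 for Socs2 with Socs3 and 1.16 for Socs3 with Cish. The ratios were lower with the product taken within each class, at 1.19 for Socs2 with Cish, 1.17 for Socs1 with Socs2, 1.25 for Socs1 with Cish, 1.18 for Socs1 with Socs3, 1.01 for Socs2 with Socs3 and 1.09 for Socs3 with Cish. Within HSC-like cells alone they ran from 1.02 (Socs2 with Socs3) to 1.21 (Socs1 with Cish). In the PBS control no single pair was found in more than 16 cells, which is too few for a ratio.

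HSC-like cells of the leukemic marrow were then split by each member, and the levels of JAK-STAT genes and class markers were compared between the parts. The splits pool the 3 HSC-like clusters, which differ in the members. Cluster 5 had a Socs2 UMI in 78.6% of cells and Cish at 184 CPM, and the mitotic cluster 9 had 53.5% and 58.3 CPM. The part of the clusters in the differences below was not tested. Cells with a UMI also had more UMIs in all (medians of 7698 and 6693 for Socs2), levels are CPM, and cells are not replicates, so the intervals again cover counting only. The 923 cells with a Socs2 UMI had more Cish than the 364 without, 166 against 106 CPM (log2 0.65, 0.47 to 0.84). They had more Pim2, a STAT5-target survival kinase (106 against 80.3 CPM, 0.40), and more of the HSC marker list (0.30). Lower in them were the multipotent progenitor list (2491 against 3447 CPM, -0.47), Flt3, a receptor of early lymphoid and myeloid progenitors (-0.67), and Csf3r, the granulocyte colony-stimulating factor receptor (-0.58). Socs1 (0.19, -0.07 to 0.46) and Socs3 (-0.26, -0.60 to 0.09) were not set apart from 0.

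The splits by Cish and by Socs3 share the same cells. Cells with a Cish UMI (716 against 571) had more Socs2 (0.51), Pim2 (0.46) and Socs1 (0.45), more of the HSC list (0.19) and less of the multipotent progenitor list (-0.34). Cells with a Socs3 UMI (262 against 1025) had less Socs2, 221 against 254 CPM (-0.20, -0.33 to -0.06). They had more Csf2rb, the common beta chain of the interleukin 3 and GM-CSF receptors, at 61.7 against 37.4 CPM (0.72, 0.44 to 1.00). Junb (0.39), of the STAT3 list, Myc (0.32), of the STAT5 list, and Pim1 (0.30), of both, were also higher there, as were the multipotent progenitor (0.30) and lymphoid-primed (0.29) lists.

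The STAT target lists were counted against all genes of at least 10 CPM in the same splits. Intervals lay above 0 for 9.65% and below 0 for 6.93% of all such genes in the Socs2 split, for 12.6% and 8.56% in the Cish split, for 5.46% and 4.23% in the Socs3 split and for 5.47% and 4.68% in the Socs1 split. In the Socs2 split, 2 of 10 STAT5 targets were higher (Ccnd2, a D-type cyclin, and Pim2) and 1 lower (Pim1), and 0 of 12 STAT3 targets were higher and 3 lower (Icam1, Junb and Pim1). In the Cish split 4 of 10 STAT5 targets (Ccnd2, Ccnd3, Pim1 and Pim2) and 2 of 12 STAT3 targets (Bcl3 and Pim1) were higher and none lower. The Socs3 split had 2 of 10 STAT5 targets (Myc and Pim1) and 3 of 13 STAT3 targets (Il6st, Junb and Pim1) higher and none lower. In the Socs1 split 2 of 10 STAT5 targets (Ccnd2 and Pim2) were higher and none lower, and 0 of 12 STAT3 targets were higher and 1 lower (Icam1). Other genes given for these splits were chosen after their values were seen, and nothing particular to a list is read from the counts.

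Cells with a Socs1 UMI (478 against 809) had more Cish (0.40), Pim2 (0.39) and Socs2 (0.33). Cxcl10, a chemokine induced by interferon and named here after its value was seen, had 49 UMIs in the cells with Socs1 and 7 in those without (log2 3.37, 2.22 to 4.76). Those 49 UMIs came from 10 cells, and the 3 highest held 41 of them. In control HSC-like cells 26 of 27 Cxcl10 UMIs were likewise in 3 of the 34 cells with a Socs1 UMI, so in both groups the value rests on a few cells and its interval, which treats UMIs as independent, is too narrow.

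**Figure D5:**
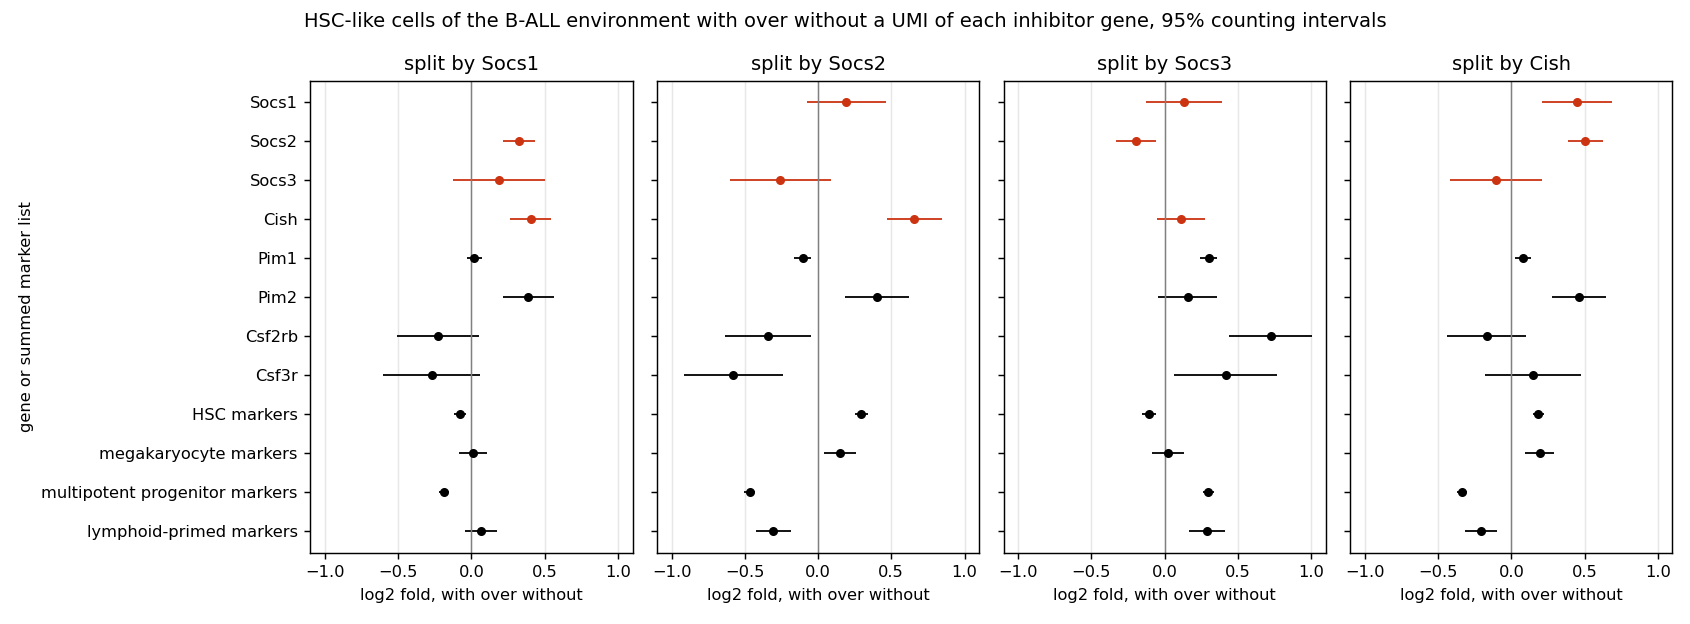
Log2 difference in level between HSC-like cells of the leukemic marrow with and without a UMI of each member, for the other members, selected JAK-STAT genes and marker lists, with 95% intervals for counting error. The multipotent progenitor list is lower in cells with Socs2 or Cish (-0.47 and -0.34) and higher in cells with Socs3 (0.30).

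Likeness to each member was measured as Pearson r of log2(CPM + 10) over the 26 sums of class and group, for the 8781 genes above. These points share 2 groups, their depth and their map, so r is a description. The members were also chosen for a difference between these groups, which enters r among them. Socs2 was most like Cish (0.95) and Socs1 (0.94), then Plxdc2 (0.90), Kcnk5 (0.90) and Slfn2 (0.88). Cish was most like Socs2, then Socs1 (0.92), Kcnk5 (0.91), Podxl (0.90) and Eid2 (0.88). Over the 13 classes of the leukemic marrow alone these orders changed. There Socs2 had an r of 0.95 with Socs1, 0.93 with Kcnk5 and 0.92 with Cish. Cish had 0.93 with Kcnk5, 0.92 with Socs2 and 0.90 with Socs1. Socs1 was followed by Bex1 (0.90), Ifitm3 (0.89) and Maged1 (0.89) after those 2 members. None of the other members was among the 5 genes most like Socs3, which were Lratd2 (0.91), Bcl3 (0.88), Dusp5 (0.87), Ly6a (0.87) and Pim1 (0.87). Its r was 0.74 with Socs1, 0.63 with Socs2 and 0.55 with Cish, and over the 13 classes of the leukemic marrow alone 0.50, 0.42 and 0.20.

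Over all cells, no tested gene of the rest of the SOCS family or of its machinery was at least 2-fold higher or lower. Of all genes tested, 1.53% were at least 2-fold higher and 1.07% lower. Counts of 0 in lists this short lie near those shares, so nothing is read from them. Socs4, Socs5, Socs6 and Socs7, the other family members, had log2 folds of -0.01, 0.39, -0.07 and 0.14 over all cells (0 of 4). None of 4 SOCS box partners (elongins, cullin 5 and Rnf7), 11 other inhibitors of JAK-STAT signaling such as phosphatases and PIAS proteins, 4 JAK kinases or 7 STAT factors passed 2-fold either. Jak3 was at 0.62, Jak2 at -0.32, Stat3 at 0.51 and Stat5b at -0.44. In HSC-like cells the counts were also 0 for the other family members, the JAK kinases and the STAT factors. All tested genes there had 2.64% higher and 1.47% lower.

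Among 22 cytokine receptors tested over all cells, 2 were at least 2-fold lower, against 1.07% of all tested genes. Epor, the erythropoietin receptor, was at -1.12 and Ifngr1, a chain of the interferon gamma receptor, at -1.02, and with equal class shares neither stayed 2-fold lower (0 of 22). Receptors passed 2-fold in both directions, and Csf2rb was among the higher ones with a log2 fold of 1.13. Counts of receptors at least 2-fold higher, here and in HSC-like cells, are not reported. In HSC-like cells 2 of 21 receptors were at least 2-fold lower, Kit at -1.04 and Flt3 at -1.09, against 1.47% of all tested genes.

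Lists of STAT5 and STAT3 targets held some genes with large folds, while most of their tested genes stayed under 2-fold. Of 10 STAT5 targets 3 were at least 2-fold higher over all cells (median log2 fold 0.43), namely the kinases Pim2 (3.04) and Pim1 (1.59) and the inhibitor of differentiation Id1 (1.79), and Bcl2l1, an anti-apoptotic gene, lay just under the limit at 0.998. Of 12 STAT3 targets 2 were (median 0.56), Bcl3 (2.20), a regulator of NF-kappa-B, and Pim1, which both lists hold. Neither list had a gene at least 2-fold lower. In HSC-like cells the counts were 2 of 10 (Pim2 at 2.77 and Id1 at 2.52) and 1 of 12 (Bcl3 at 1.53), and Pim1 was at 0.87. The background in both comparisons is the 1.53% and 2.64% given above, and nothing particular to the lists is read from these counts.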

How the data were processed

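The authors deposited a matrix of raw UMI counts per gene and cell, with a cell table that gives each cell's group prefix and UMAP coordinates, used as deposited score values. The submitters' processing notes name Cell Ranger 4, Seurat 4.0.1 and mm10, and filters on cells and genes are not given in the sources used here. The prefix tm was read as tumor. The design had named edgeR's quasi-likelihood test if cells could be mapped to the 4 samples, which they could not. Whether UMIs on the opposite strand were counted is not given either. Labels do not say whether the 2 samples per group were separate mice, and they name LN768 as the cell line of every sample although host cells were sorted.

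Summed UMIs of each class and group were divided by total UMIs for levels (CPM, exact Poisson intervals), and by TMM-scaled totals for folds (edgeR 4.0.16, R 4.3.3, exact conditional intervals). Shares of cells in results have Clopper-Pearson intervals, and thinning to 5000 UMIs used exact probabilities. PCR and UMI counts give intervals and floors (3 UMIs per class and group) for counting error only. Classes were Leiden clusters of the UMAP (scanpy 1.11.5, igraph 0.11.9, 30 neighbours, resolution 0.3), named for the list of markers most enriched on the log2 scale, by at least 0.5 on average, with at least 3 markers in 10% of cells and no other list ahead among its 10 leading genes. Doublets were not called. Cluster 18, with 21 and 32 cells led by T cell genes, was not compared. Software also included python 3.11.15, numpy 2.4.6, pandas 2.3.3, scipy 1.17.1, anndata 0.12.19, matplotlib 3.10.9 and DESeq2 1.42.0 (size factors only). Genes named are the members, up to 4 per pathway list by size of fold over all cells, the 5 most like each member, and Ptprc and Kit. In the splits and in HSC-like cells, genes of the lists were named after their values were seen. The members and lists were chosen with earlier results of these data known. The intervals were tried on Poisson counts simulated for the all-cell comparison. They covered the true fold in 97.0%, 94.0% and 96.0% of genes changed by a log2 fold of 2, 1 and -2. Among 8437 unchanged genes the coverage was 94.9%. Such counts have no spread between cells or mice, as the intervals assume, so this coverage checks the computation only. Some genes and 1 pathway list are not reported here.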

Additional observations from a re-analysis of the deposited data

How the results depend on the processing

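Of 395 recomputed folds of the members, 394 stayed above 0, the exception being Socs2 in lymphoid-primed-like cells, and of 536 recomputed values 62 moved beyond their counting interval or 1.5 times and none that was called reversed. With equal class shares the all-cell folds were 2.00, 4.30, 2.48 and 3.08 for Socs1, Socs2, Socs3 and Cish, and counts of genes at least 2-fold higher and lower were 83 and 61. Levels in the leukemic marrow were recomputed only in the class of the same name as each member's highest class above. Classes were not ranked anew, so whether these classes stayed the highest was not tested. At resolution 0.6 the levels were 222.7 CPM for Socs2 and 138.7 for Cish in HSC-like cells and 55.0 for Socs3 in multipotent progenitor-like cells. With cells classed by their own marker UMIs the levels in HSC-like cells were 54.9 (Socs1), 221.5 (Socs2) and 137.2 (Cish). Ratios of shares of cells, for at least 2 UMIs without thinning, were 15, 68.4, 27.3 and 51.0 over all cells and 9.85, 197.6, 6.79 and 33.0 in HSC-like cells (Socs1, Socs2, Socs3, Cish), against thinned ratios of 5.30, 23.4, 6.30 and 8.18, and 5.03, 20.9, 2.53 and 8.20. Unthinned co-detection ratios were 1.47 (Socs1 with Socs2), 1.48 (Socs1 with Cish) and 1.69 (Socs2 with Cish), and within classes 1.17, 1.25 and 1.19, and 1.01 for Socs2 with Socs3. Counts of genes higher and lower over all cells were 346 and 245 at 1.5-fold and 611 and 323 with a limit of 1 CPM, against 134 and 94. In HSC-like cells they were 653 and 418, and 956 and 503, against 244 and 136. The cause was not tested where a class, weighting or depth rule moved a value, and looser limits count more genes by construction. Other scalings, no filter on low genes, deeper cells only, and leaving out globin- or Igkc-rich cells, cells of shared barcodes or the mitotic HSC-like cluster (the last 2 added after seeing the data) left every all-cell and HSC-like fold of the members within its interval. No paired analysis was possible because the cells carry no replicate numbers, and for that reason the replicate block, leaving out each replicate, and edgeR's quasi-likelihood against DESeq2's Wald test were not run. Depth limits the low classes, since 12 of 52 pairs of gene and class rest on 1 to 3 control UMIs and 1 on 0.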

Other observations

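A small cluster led by T cell genes (Trbc1, Tcf7 and Ccl5) was too small to compare, with 21 cells in the control and 32 in the leukemic marrow. Socs1, which also limits cytokine signaling in T cells, had 18 UMIs in 7 of the 21 control cells (33.3%), a level of 99.9 CPM (59.2 to 158), the highest of any class in the control. In the leukemic marrow the same cluster had 1 Socs1 UMI, 7.33 CPM. Cish had 1 UMI in the control cells and 0 in the others, which allows a level of up to 22.0 CPM.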
